A study of Arabidopsis thaliana with 12 samples.

Results

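The response of the Arabidopsis thaliana mutant siz1-3 to 2 h of dehydration was described from 6 of the 12 ATH1 GeneChip arrays of the series: the 3 arrays titled as siz1-3 under drought and the 3 titled as siz1-3 under control conditions. The remaining 6 arrays hold the same contrast in Col-0, the wild type, and were used to estimate the spread of each probe set and to test where the mutant's response differed. The groups were therefore siz1-3 plants dehydrated for 2 h, siz1-3 control plants, Col-0 plants dehydrated for 2 h and Col-0 control plants, with 3 arrays in each group and plants of 3 weeks by the labels (1 Col-0 control array gives its age in days). No transgene is named, and siz1-3 is a single insertion allele of SIZ1. No tissue is named, and nothing states that replicates came from separate plantings, so the p-values speak for the spread among these arrays, possibly a technical one. In whole plants or mixed tissue, fewer cells of a type and less RNA per cell cannot be told apart.

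SIZ1 encodes a SUMO E3 ligase, which helps to join the small protein SUMO to other nuclear proteins, transcription factors among them. When a plant loses water, abscisic acid accumulates, stomata close and genes for protective proteins such as dehydrins and other late embryogenesis abundant (LEA) proteins are switched on. Growth, cell division and the building of the photosynthetic apparatus are commonly held back at the same time, while stored carbon and amino acids are drawn on.

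Signals are the authors' probe set intensities on a linear scale. A log2 difference is the mean of log2(signal + 16) in dehydrated siz1-3 minus that in siz1-3 control plants, with its standard error from limma, so the change of dim probe sets is understated. A probe set is said to have risen or fallen where limma's Benjamini-Hochberg adjusted p over all 22746 probe sets was under 0.05. On this rule 10707 probe sets, 47.1%, changed in siz1-3: 3482 (15.3%) rose and 7225 (31.8%) fell. Of these, 1623 (7.14%) rose and 2644 (11.6%) fell by at least 2-fold. Among the 13356 genes that the annotation pairs with their own probe set, 1753 (13.1%) rose and 4040 (30.2%) fell, with a median log2 difference of -0.16. Every count of a group of genes below is to be read beside these shares. A gene is called measured where the annotation pairs it with a probe set of its own. Other genes may still be on the array, among the 8730 tested probe sets that the annotation does not list. The groups for photosystems, the NDH complex, pigments, organelle RNA, plastid-encoded transcripts, starch and sugar storage, DNA replication, microtubules, wall acetylation, pectin methylesterases, stomatal development, CLE peptides, CYP71B, NPF, UGT76, electron carriers and sorting complexes were formed after the values were seen, so their counts describe chosen groups.

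The balance of rises and falls depended on how the arrays were scaled. The median signal of an array was 65.1 to 65.6 in dehydrated siz1-3 plants and 86.9 to 87.7 in siz1-3 control plants, and the deposited values had not been brought to a common median. The arrays did share a common trimmed mean, the mean without the extremes at either end, of 247.1 to 247.7. After quantile normalization 4339 rose and 5433 fell, and after subtraction of each array's median 6699 rose and 4107 fell, which is 44.4% and 62.0% of the changed probe sets higher against 32.5% on the deposited scale. At the median probe set the log2 difference moved up by about 0.13 and 0.35. Subtraction of medians moves every probe set by that same amount, whereas quantile normalization moved some groups the other way, such as the genes of carbon fixation below, whose median was -0.898 on the deposited scale and -1.023 after it. Small differences below are to be read against these shifts. Arrays of a group correlated at 0.983 to 0.991 in siz1-3, and dehydrated with control siz1-3 arrays at 0.887 to 0.903. The 3' to 5' ratio of the actin control probe sets was 15.01 to 18.37 in dehydrated and 8.29 to 18.95 in control siz1-3 plants. For the GAPDH control probe sets it was 1.21 to 1.39 in dehydrated and 1.09 to 1.74 in control siz1-3 plants. The part of these ratios in the results was not tested.

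SIZ1 itself was examined as a check on the genotype. Its brighter probe set read 81.5, 101.01 and 101.4 on the 3 dehydrated siz1-3 arrays and 160.1, 172 and 177 on the siz1-3 control arrays, against 392, 465 and 359.8 in dehydrated Col-0 and 450.5, 428 and 286 in control Col-0. Both siz1-3 groups lay below both Col-0 groups, with a two-sided exact permutation p of 0.1 between genotypes in each condition, the smallest that 3 arrays against 3 can give. A dimmer SIZ1 probe set ran the other way between the genotypes, at 60.3, 92.2 and 83.7 in dehydrated siz1-3 and 34.2, 11.05 and 2.85 in dehydrated Col-0 (exact permutation p = 0.1). The position of these probe sets with respect to the insertion was not known here. Within siz1-3 the brighter SIZ1 signal fell with dehydration, with a log2 difference of -0.75 ± 0.17 (limma adjusted p = 0.00231, or 0.0587 once array medians were subtracted). The other measured gene of the SUMO pathway, SAE1A (AT4G24940), a subunit of the SUMO-activating enzyme, had a log2 difference of -0.11 ± 0.11 (adjusted p = 0.49).

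Genes for protective proteins of dehydrated cells rose in siz1-3. Of 7 measured members of a list of 28 water-deficit effectors, 6 rose and 0 fell, beside 13.1% and 30.2% of all genes. Their median log2 difference was 3.08. LTI30 (AT3G50970), a dehydrin, read 3548, 4292 and 4110.1 in dehydrated siz1-3 and 388, 321 and 348 in siz1-3 controls, a log2 difference of 3.44 ± 0.12 (adjusted p = 9.79e-10). COR47 (AT1G20440), another dehydrin, read 14425, 14682 and 15868 in dehydrated plants and 1572, 1889 and 1816 in controls (3.08 ± 0.13, adjusted p = 2.25e-09). Every dehydrated array lay far above every control array for both. LEA4-5 (AT5G06760), an LEA protein of group 4, read 379, 403 and 418 against 11.7, 48.0 and 32.7 (3.23 ± 0.29, adjusted p = 1.61e-06).

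The locus AT3G02480, on the same list and without a name in the reference used, read 1154, 1490.2 and 1466 in dehydrated and 18.0, 20.4 and 2.08 in control siz1-3 plants (5.61 ± 0.22, adjusted p = 1.71e-09). Its control signals lay near or below the added 16, so the size of that change is a low estimate. COR15A (AT2G42540), a cold-induced protein of the chloroplast stroma, rose by 1.69 ± 0.16, while COR15B (AT2G42530), its close relative, read 1113, 1215 and 1214 in dehydrated and 1622, 1374 and 1492 in control plants and did not pass (adjusted p = 0.203). The 3 dehydrated arrays of COR15B lay below its 3 controls, whereas those of COR15A lay above. By symbol, 5 of 5 measured LEA genes rose, beside 13.1% of all genes, with a median log2 difference of 1.99. Among them were LEA18 (AT2G35300) at 2.57, AtLEA4-1 (AT1G32560) at 1.99 and AT2G46140 (LEA27) at 1.98.

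Several of these genes rose more in siz1-3 than in Col-0. The difference between the responses, siz1-3 minus Col-0, was 1.69 ± 0.18 for COR47 (limma interaction, adjusted p = 0.000228), 1.27 ± 0.17 for LTI30 (adjusted p = 0.001) and 1.09 ± 0.23 for COR15A (adjusted p = 0.012). Over the array 2003 probe sets, 8.81%, had a response that differed, 874 (3.84%) more positive and 1129 (4.96%) more negative in siz1-3. The balance turned round after quantile normalization, with 936 more positive and 858 more negative, and after subtraction of array medians, with 1229 and 637. For COR47 the dehydrated levels were close, 14425, 14682 and 15868 in siz1-3 and 14643, 17169 and 19209.5 in Col-0, while the control levels were 1572, 1889 and 1816 in siz1-3 and 7017, 6317 and 5974 in Col-0. For LTI30 the mean signals in siz1-3 and Col-0 were 3983 and 4081 in dehydrated plants and 352 and 896 in controls. COR15A averaged 2775 and 12690 in dehydrated plants and 865 and 8371 in controls, so its level was lower in siz1-3 in both conditions. AT2G46140 (LEA27) also had a more positive response in siz1-3 (1.54 ± 0.20, limma interaction, adjusted p = 0.000736). Its means in siz1-3 and Col-0 were 1412 and 139 in dehydrated plants and 350 and 98.8 in controls.

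On the scale with 16 added, the largest increase of any gene with a probe set of its own was UGT76E12 (AT3G46660), a UDP-glycosyltransferase, which read 4009.7, 4507 and 4465 in dehydrated siz1-3 and 20.6, 57.6 and 17.7 in controls. That is a log2 difference of 6.59 ± 0.27, or 96.5-fold on the offset scale (adjusted p = 1.9e-09). Enzymes of this class add a sugar to small molecules, hormones included. Of 8 measured UGT76 genes, a group formed after the values were seen, 5 rose and 0 fell, beside 13.1% and 30.2% of all genes. UGT76E11 (AT3G46670) read 888, 977 and 899.6 in dehydrated plants and 54.6, 76.5 and 64.9 in controls (3.53 ± 0.17), and UGT76E1 (AT5G59580) and UGT76C2 (AT5G05860), the last a cytokinin N-glucosyltransferase, rose by 2.05 and 0.70. UGT76B1 (AT3G11340), which glycosylates isoleucic acid and salicylic acid, read 1189, 1036 and 1158 in dehydrated and 139, 129 and 166 in control siz1-3 (2.83 ± 0.13). Its response was more positive than in Col-0 by 2.35 ± 0.18 (adjusted p = 3.05e-05). Close relatives such as UGT76E11 and UGT76E12 may share probe sequence, which was not tested.

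**Figure D1:**
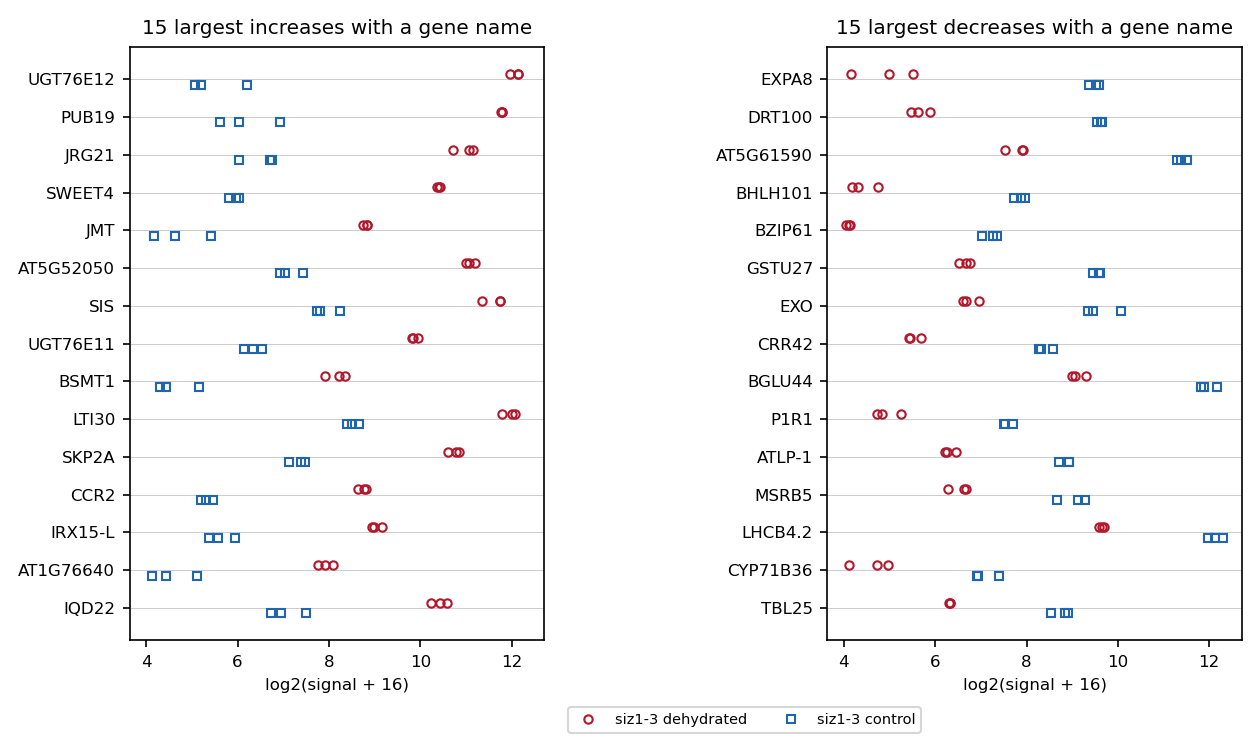
Signals on every siz1-3 array, as log2(signal + 16), for the 15 largest increases (left) and the 15 largest decreases (right) among genes with a name; circles are the 3 dehydrated arrays and squares the 3 control arrays. By the rule that chose them the groups do not overlap in any row; UGT76E12 spans the widest gap on the left and EXPA8 on the right.

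Other large increases included a ubiquitin ligase and transporters. PUB19 (AT1G60190), a U-box ubiquitin ligase known from drought responses, read 3508, 3532 and 3466 in dehydrated siz1-3 and 33.0, 105.05 and 49.5 in controls (5.59 ± 0.28, adjusted p = 8.09e-09). SWEET4 (AT3G28007), a sugar transporter, read 1302, 1368 and 1343 against 49.5, 40.1 and 46.3 (4.47 ± 0.12, adjusted p = 2.85e-10), and its response exceeded that in Col-0 by 1.26 ± 0.18 (adjusted p = 0.00107). It was the 1 riser among 17 measured SWEET genes, of which 6 fell on the deposited scale and 3 after either rescaling. On the deposited scale 13.1% of all genes rose and 30.2% fell. SWEET17 (AT4G15920), a vacuolar fructose transporter, read 177, 190.3 and 167 in dehydrated and 556, 621 and 547 in control plants (-1.61 ± 0.12). AT5G52050 (DTX50), an efflux carrier for abscisic acid, read 2131, 2045 and 2332 in dehydrated plants and 106, 156 and 116 in controls (3.96 ± 0.23, adjusted p = 2.85e-08).

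JMT (AT1G19640) encodes the methyltransferase that makes methyl jasmonate, and read 437, 416 and 438 in dehydrated siz1-3 against 8.79, 26.7 and 1.88 in controls (4.07 ± 0.31, adjusted p = 3.06e-07). BSMT1 (AT3G11480), which methylates salicylic and benzoic acid, read 225, 309.8 and 283 in dehydrated and 5.58, 19.9 and 3.64 in control plants (3.53 ± 0.30). JRG21 (AT3G55970), a jasmonate-regulated gene, read 1661, 2137 and 2255 against 49.7, 88.4 and 91.1 (4.48 ± 0.35). These 3 genes rose by log2 differences of 4.02, 4.57 and 4.05 in Col-0, and no difference between the genotypes was called for them (adjusted p = 0.969, 0.16 and 0.663).

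Among the remaining large increases, SKP2A (AT1G21410), an F-box protein that marks cell-cycle regulators for breakdown, rose by 3.42 ± 0.13, and CCR2 (AT1G80820), a cinnamoyl-CoA reductase of lignin synthesis, rose by 3.41 ± 0.22. IRX15-L (AT5G67210), a protein of xylan synthesis, rose by 3.41 ± 0.15. AT1G76640 (CML39), a calmodulin-like protein, read 202, 256 and 224 in dehydrated and 1.42, 5.48 and 18.7 in control siz1-3 plants (3.37 ± 0.37). IQD22 (AT4G23060) of the calmodulin-binding IQ-domain family rose by 3.36 ± 0.19, and its relative iqd21 (AT3G49260) fell, with 95.7, 95.7 and 89.4 in dehydrated plants and 321, 306 and 349 in controls (-1.64 ± 0.12). Of 23 measured calmodulin-like and IQ-domain genes 7 rose and 9 fell, beside 13.1% and 30.2% of all genes. In this family 9 rose and 6 fell after quantile normalization, and 10 and 5 after subtraction of array medians. SIS (AT5G02020), a salt-induced serine-rich protein, read 2618, 3417 and 3441 against 206, 286 and 196 (3.70 ± 0.19). The responses of CCR2, IQD22 and SIS were more positive than in Col-0 by 1.51, 1.23 and 1.23 (adjusted p = 0.0109, 0.016 and 0.0155; for CCR2 0.159 with 1 added in place of 16).

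Ubiquitin genes moved in both directions. Of 13 measured ubiquitin-conjugating enzyme genes 5 rose and 3 fell, beside 13.1% and 30.2% of all genes. After subtraction of array medians 9 of the 13 rose and 2 fell. UBC32 (AT3G17000), an enzyme of degradation at the endoplasmic reticulum, read 2485, 2545 and 2629 in dehydrated siz1-3 and 521, 536 and 550.4 in controls (2.22 ± 0.10, adjusted p = 3.34e-09). UBC20 (AT1G50490), an enzyme of mitosis, read 87.6, 100.9 and 103 against 304, 224 and 289 (-1.34 ± 0.14). Of 9 U-box ligase genes 3 rose and 2 fell, to be read beside the same shares of all genes. PUB26 (AT1G49780), a ligase of immune signalling, fell, at 14.1, 3.86 and 19.4 in dehydrated and 114, 159 and 102 in control plants (-2.33 ± 0.22).

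Some autophagy genes rose. Autophagy encloses cell material in a double membrane and carries it to the vacuole, and ATG8 proteins coat that membrane. Of 10 measured members of the list 4 rose and 0 fell, with a median of 0.28, against 13.1% of all genes higher; after subtraction of array medians 7 rose. ATG8H (AT3G06420) stood apart, with 1161, 1469 and 1297 in dehydrated siz1-3 and 198, 157 and 144 in controls (2.87 ± 0.17, adjusted p = 3.17e-08). APG8A (AT4G21980, ATG8A) read 909.97, 1196 and 1069 against 478, 526 and 504 (1.04 ± 0.13), and ATG8B (AT4G04620) read 185, 243 and 214 against 125, 133 and 121 (0.68 ± 0.12). ATG8D (AT2G05630) had a smaller rise of 0.45 ± 0.11. Of genes outside the list, chosen after their values were seen, ATG3 (AT5G61500), which attaches ATG8 to lipid, rose by 0.42 ± 0.11 and AT5G66930 (ATG101), a part of the starting kinase complex, by 0.93 ± 0.16.

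In Col-0 the log2 differences of ATG8H, ATG8B and ATG101 were 1.72, 0.01 and -0.02, and the responses of siz1-3 were more positive by 1.15 ± 0.23, 0.67 ± 0.17 and 0.95 ± 0.23 (limma interaction, adjusted p = 0.0105, 0.0267 and 0.026). The endosomal sorting complexes (ESCRT), which bend membranes inward at endosomes and also serve autophagy, were also higher. Of 15 measured ESCRT and vacuolar sorting genes, a group formed after the values were seen, 10 rose and 2 fell, with a median of 0.53. Among all genes 13.1% rose and 30.2% fell. VPS60.1 (AT3G10640) read 1189, 1134 and 1287 in dehydrated siz1-3 and 544, 421 and 507 in controls (1.27 ± 0.14), and SNF7.1 (AT4G29160), the filament-forming subunit, read 873, 861 and 857 against 388, 394 and 460.1 (1.04 ± 0.13).

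VPS20.1 (AT5G63880) rose by 0.97 ± 0.15 and ELC (AT3G12400), a ubiquitin-binding subunit, by 0.91 ± 0.12. VPS9B (AT5G09320) fell, at 25.6, 38.5 and 43.8 in dehydrated and 109.96, 103 and 92.3 in control plants (-1.19 ± 0.14); it is named for an exchange factor of RAB proteins rather than an ESCRT subunit. VPS2.2 (AT5G44560) also fell (-0.70 ± 0.22, adjusted p = 0.0178), a call that was lost after either rescaling and without siz1-3 control replicate 1 or dehydrated replicate 3 (adjusted p 0.0605 to 0.202). PRA1.B4 (AT2G38360), a prenylated RAB acceptor of the endomembrane system, read 1356, 1259 and 1325 in dehydrated and 265, 314 and 283 in control plants (2.13 ± 0.10), more positive than in Col-0 by 1.15 ± 0.15 (adjusted p = 0.000625).

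**Figure D2:**
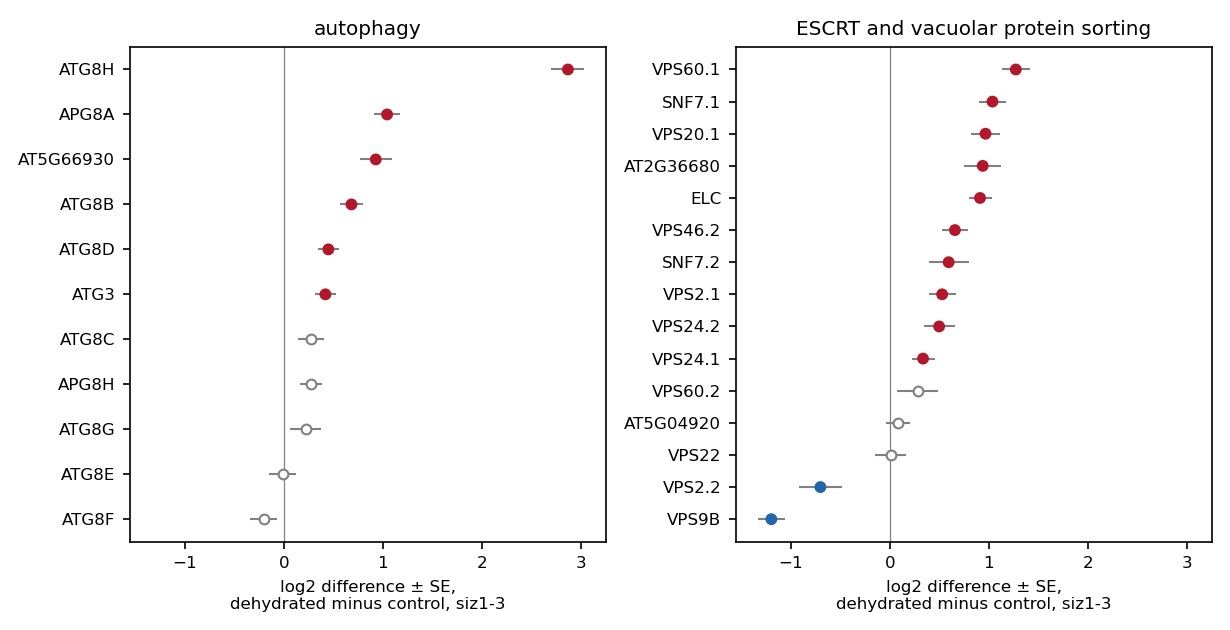
Log2 difference of signal + 16, dehydrated minus control siz1-3, with its standard error, for each measured gene of autophagy (left) and of ESCRT and vacuolar protein sorting (right); filled points passed the test and open points did not. ATG8H lies far to the right of the other autophagy genes, and VPS9B and VPS2.2 are the genes on the left of 0 that passed.

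Genes of amino acid breakdown were split. Of 6 measured members of the starvation list 3 rose and 3 fell, beside 13.1% and 30.2% of all genes. AT4G33150 (LKR/SDH), the enzyme that begins lysine breakdown, read 411, 465 and 426 in dehydrated siz1-3 and 71.0, 86.9 and 71.9 in controls (2.28 ± 0.15, adjusted p = 1.19e-07). Its increase in Col-0 was larger, 3.49, and the difference was -1.20 ± 0.22 (adjusted p = 0.00522). The subunits of 3-methylcrotonyl-CoA carboxylase, which acts in leucine breakdown, went opposite ways. MCCA (AT1G03090) read 803, 760.4 and 826 in dehydrated plants and 204, 254 and 249 in controls (1.70 ± 0.12, adjusted p = 1.41e-07), while MCCB (AT4G34030) read 174, 201 and 168 against 389, 462 and 442 (-1.18 ± 0.13, adjusted p = 7.96e-06). The arrays of neither gene overlapped between the groups, and Col-0 had the same directions, at 1.12 and -0.77.

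ETFBETA (AT5G43430), a subunit of the electron transfer flavoprotein that takes electrons from branched-chain amino acid breakdown, rose by 1.06 ± 0.15. ETFQO (AT2G43400), the oxidoreductase that follows it, had a log2 difference of -0.67 ± 0.16 (adjusted p = 0.00432; 0.116 and 0.141 after the rescalings), and IVD (AT3G45300), isovaleryl-CoA dehydrogenase, one of -0.44 ± 0.12 (0.132 and 0.506 after the rescalings). AT5G38710, the 1 measured locus of the proline list, read 601, 645 and 578 in dehydrated and 57.9, 78.5 and 86.1 in control siz1-3 plants (2.80 ± 0.22, adjusted p = 3.99e-07). ALDH7B4 (AT1G54100), an aldehyde dehydrogenase known from drought and salt stress, read 5354, 5558 and 5444 against 526, 699 and 847 (2.98 ± 0.18, adjusted p = 3.6e-08).

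Nuclear genes for mitochondrial electron carriers rose more often than they fell. In a group formed after the values were seen, 7 of 14 genes rose and 2 fell, where 13.1% of all genes rose and 30.2% fell. NDB2 (AT4G05020), an external NAD(P)H dehydrogenase of the inner membrane, read 1008, 1060.1 and 1031 in dehydrated siz1-3 and 151, 166 and 159 in controls (2.59 ± 0.13, adjusted p = 9.66e-09), and its relative NDB1 (AT4G28220) fell, with 118, 109 and 89.4 against 291, 194 and 215 (-1.03 ± 0.16). CYTC-2 (AT4G10040), a cytochrome c, read 975, 1024 and 965 in dehydrated plants and 218, 238 and 234 in controls (2.03 ± 0.15). SDH1-1 (AT5G66760) and SDH2-1 (AT3G27380), subunits of succinate dehydrogenase, rose by 1.498 ± 0.13 and 0.997 ± 0.12, the second more than in Col-0 (difference 0.73 ± 0.18, adjusted p = 0.0239).

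Nitrate and peptide transporter family (NPF) genes, a group of the same kind, also rose more often than they fell, 6 against 1 of 11, beside the same 13.1% and 30.2% of all genes. GTR1 (AT3G47960), which imports glucosinolates into cells, read 2689.8, 2740.3 and 2864 in dehydrated siz1-3 and 446, 552 and 397 in controls (2.54 ± 0.16). AT3G21670 (NPF6.4) read 363, 373 and 338 against 37.1, 62.4 and 49.2 (2.53 ± 0.17), and AT1G72125 (NPF5.13) rose by 1.82 ± 0.23. AT1G68570 (NPF3.1) was the member that fell, at 300.3, 225 and 261 in dehydrated and 539, 465 and 466 in control plants (-0.87 ± 0.14). Its response was more negative than in Col-0 (difference -1.07 ± 0.20, limma interaction, adjusted p = 0.00672). Its means in Col-0 were 203 in dehydrated and 176 in control plants, so its control level was higher in siz1-3.

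Genes for building the photosynthetic apparatus fell. Of 19 measured nuclear genes for photosystem subunits and their assembly, a group formed after the values were seen, 18 fell and 0 rose, with a median log2 difference of -1.03, against 30.2% of all genes lower; after subtraction of array medians 12 fell and 0 rose. LHCB4.2 (AT3G08940), an antenna protein of photosystem II, read 819, 756 and 790.5 in dehydrated siz1-3 and 3995, 4471 and 5049.98 in controls (-2.48 ± 0.13, adjusted p = 1.14e-08). Its relative LHCB4.1 (AT5G01530) read 8112, 7229 and 7908 against 9868, 9639 and 10887 (-0.39 ± 0.11, adjusted p = 0.0105, but 0.782 once array medians were subtracted). Both probe sets were bright, and LHCB4.2 showed a clear gap between the groups where LHCB4.1 showed a narrow one.

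Assembly factors for photosystem II were lower too. LPA19 (AT1G05385) read 49.3, 49.8 and 40.7 in dehydrated and 196, 204 and 242 in control siz1-3 plants (-1.88 ± 0.11). LPA66 (AT5G48910), an RNA editing protein for a plastid photosystem transcript, fell (-1.78 ± 0.14), as did LPA2 (AT5G51545) (-1.57 ± 0.16) and PAM68 (AT4G19100) (-1.11 ± 0.14). The subunits PSBY (AT1G67740) of photosystem II and PSAN (AT5G64040) of photosystem I had log2 differences of -1.39 ± 0.14 and -1.11 ± 0.12. For PSAN and LPA2 the fall was larger than in Col-0 (differences -0.69 ± 0.17 and -0.88 ± 0.22, adjusted p = 0.0259 and 0.0304; 0.067 and 0.0627 once array medians were subtracted).

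The chloroplast NADH dehydrogenase-like (NDH) complex carries electrons around photosystem I. All 8 measured nuclear genes for its subunits and assembly fell under each of the 3 scalings, with a median of -1.31 on the deposited scale. On that scale 30.2% of all genes fell. CRR42 (AT5G20935), an assembly factor, read 26.8, 35.7 and 27.8 in dehydrated siz1-3 and 365, 303 and 295 in controls (-2.87 ± 0.12, adjusted p = 2.59e-09), against a log2 difference of -1.85 in Col-0 (difference -1.02 ± 0.17, adjusted p = 0.00359). The subunit genes NdhS (AT4G23890) and NdhN (AT5G58260) read 459, 389 and 485 and 388, 361 and 318 in dehydrated plants, and 1875, 1311 and 1361 and 1142, 1114 and 1119 in controls (-1.72 ± 0.18 and -1.62 ± 0.11). CRR22 (AT1G11290), an RNA editing protein for plastid ndh transcripts, fell (-1.33 ± 0.34).

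Signals of probe sets for the plastid genome itself changed less. How well the labelling captured such transcripts was not tested, so these signals may not give their levels. Of 69 measured plastid-encoded genes 1 rose and 5 fell, beside 13.1% and 30.2% of all genes. Their median of -0.25 turned to 0.09 after subtraction of array medians, when 8 rose and 1 fell. rbcL (ArthCp030), the large subunit of rubisco, read 249, 196 and 100.4 in dehydrated and 473, 426 and 258 in control siz1-3 plants (-1.06 ± 0.29, adjusted p = 0.00896; 0.0606 after that subtraction), and its replicates spread widely. rps18 (ArthCp044), a plastid ribosomal protein, read 85.1, 73.7 and 48.9 against 196, 133 and 146 (-1.04 ± 0.19). Without siz1-3 control replicate 2 the count of changed plastid genes was 3, and without control replicate 3 it was 10.

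Chlorophyll and carotenoid synthesis and the Calvin cycle followed the nuclear photosystem genes. Of 13 measured genes of tetrapyrrole and carotenoid synthesis 8 fell and 0 rose, beside 30.2% and 13.1% of all genes. After subtraction of array medians 8 of the 13 fell and 4 rose. PORB (AT4G27440), which carries out the light-dependent step of chlorophyll synthesis, read 1041, 797 and 907 in dehydrated siz1-3 and 3724, 3594 and 2762 in controls (-1.85 ± 0.17, adjusted p = 1.91e-06). CHLM (AT4G25080) read 1485, 1215 and 1186 against 3661, 3716 and 4689 (-1.62 ± 0.13). CHLI2 (AT5G45930), HEME2 (AT2G40490) and LYC (AT3G10230), the lycopene beta-cyclase, fell (-1.44 ± 0.13, -1.24 ± 0.12 and -1.76 ± 0.16), and AT1G74470, a geranylgeranyl reductase, fell (-1.59 ± 0.13). The early enzyme GSA1 (AT5G63570) did not pass, with 764, 734 and 745 in dehydrated and 814, 768 and 615 in control plants (adjusted p = 0.863).

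All 4 measured genes of carbon fixation and photorespiration fell under each of the 3 scalings, where 30.2% of all genes fell on the deposited scale. PRK (AT1G32060), phosphoribulokinase, read 1444, 1399.8 and 1352 in dehydrated siz1-3 and 4299, 4198 and 5526 in controls (-1.72 ± 0.13, adjusted p = 4.47e-07). RCA (AT2G39730), rubisco activase, read 4471, 4383 and 4445 against 8178, 7776 and 9013 (-0.90 ± 0.10). SBPASE (AT3G55800) and the photorespiratory enzyme HPR (AT1G68010) had log2 differences of -0.89 ± 0.13 and -0.87 ± 0.14. Of 16 genes of organelle RNA processing and expression 9 fell and 0 rose, beside 30.2% and 13.1% of all genes. The falls were led by PPR596 (AT1G80270), at 34.7, 27.8 and 29.7 in dehydrated and 195, 208 and 187 in control plants (-2.19 ± 0.14), and the splicing factor CFM3A (AT3G23070) (-1.98 ± 0.14). Both fell more than in Col-0 (differences -0.90 ± 0.20 and -0.80 ± 0.19, adjusted p = 0.0157 and 0.0244; for the second 0.0743 and 0.0549 after the rescalings).

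Genes of starch and sugar storage fell in 6 of 9 cases and rose in 1, where 30.2% of all genes fell and 13.1% rose. TMT1 (AT1G20840), which loads sugars into the vacuole, read 131, 129 and 124 in dehydrated siz1-3 and 441, 494 and 512 in controls (-1.79 ± 0.10, adjusted p = 2.75e-08). ATSPS4F (AT4G10120), a sucrose-phosphate synthase, read 67.3, 57.9 and 78.3 against 259.8, 325 and 218 (-1.75 ± 0.22), and SBE2.2 (AT5G03650), a starch branching enzyme, fell (-1.23 ± 0.16).

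**Figure D3:**
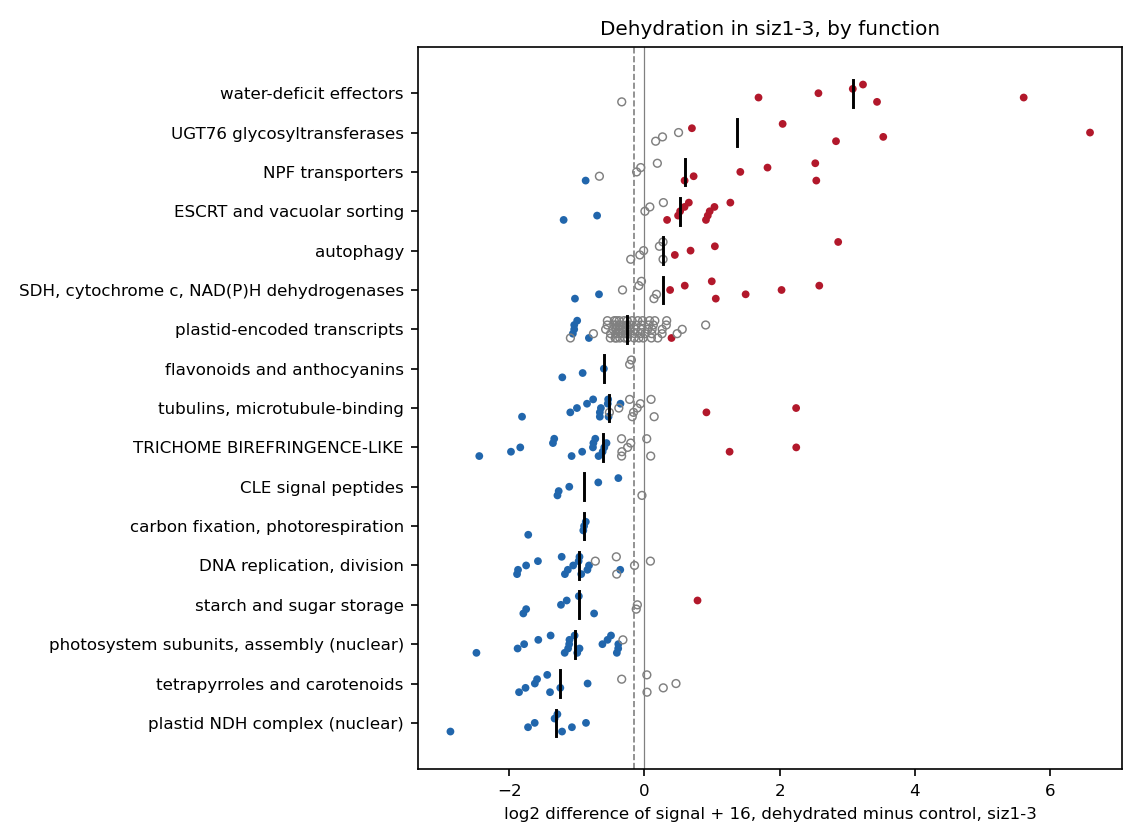
Log2 difference of signal + 16, dehydrated minus control siz1-3, for each measured gene in 17 groups; filled points passed the test (red higher, blue lower), open points did not, the black bar is the group's median and the dashed line the median of all genes, -0.16. Water-deficit effectors lie to the right and the nuclear photosynthesis groups lie to the left, while most plastid-encoded transcripts are open points near the dashed line.

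Genes of DNA replication and cell division fell, again in a group formed after the values were seen: of 19 measured 14 fell and 0 rose, against 30.2% of all genes lower, with a median of -0.96, and after either rescaling 11 fell and 1 rose. AUR1 (AT4G32830), an Aurora kinase of mitosis, read 40.1, 52.7 and 50.9 in dehydrated siz1-3 and 224, 195 and 177 in controls (-1.75 ± 0.15). The chromatin proteins 3xHMG-box2 (AT4G23800) and HON4 (AT3G18035), a linker histone relative, fell (-1.88 ± 0.19 and -1.87 ± 0.12). PRL (AT4G02060) (MCM7) of the replicative helicase read 43.3, 51.4 and 47.2 against 112, 114 and 143 (-1.13 ± 0.12), POLD3 (AT1G78650), a DNA polymerase delta subunit, fell (-1.57 ± 0.20), and BUB3.1 (AT3G19590) of the spindle checkpoint fell (-1.05 ± 0.13).

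Of 23 tubulin and microtubule-binding genes 12 fell and 2 rose, beside 30.2% and 13.1% of all genes. After subtraction of array medians 4 of this group fell and 3 rose. TUB5 (AT1G20010), a beta-tubulin, read 392, 314 and 323 in dehydrated siz1-3 and 1344, 1312 and 1072 in controls (-1.81 ± 0.13, adjusted p = 1.7e-07). TUB6 (AT5G12250), TUB1 (AT1G75780) and TUB7 (AT2G29550) fell (-0.998, -0.85 and -0.66), the last of them with an adjusted p of 0.0708 once array medians were subtracted. Of the TON1 RECRUITING MOTIF genes, whose proteins help to place microtubules at the cell cortex, TRM26 (AT2G17550) fell (-1.096 ± 0.16) and TRM15 (AT4G00440) rose, at 641, 716 and 726 in dehydrated and 121, 125 and 157 in control plants (2.24 ± 0.18).

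Cell wall genes were divided. EXPA8 (AT2G40610), an expansin, which loosens walls during growth, read 15.8, 29.4 and 1.75 in dehydrated siz1-3 and 753, 648 and 719.96 in controls (-4.61 ± 0.29, adjusted p = 6.14e-08). EXPA4 (AT2G39700) fell to 236, 191 and 175, against 494, 504 and 586 in controls (-1.33 ± 0.16), and EXPA16 (AT3G55500) rose, with 468, 361 and 338 against 56.7, 51.4 and 43.7 (2.59 ± 0.14). Of 20 measured expansin genes 2 rose and 8 fell, beside 13.1% and 30.2% of all genes. After subtraction of array medians 4 expansin genes rose and 4 fell. EXO (AT4G08950), a protein of brassinosteroid-promoted growth, read 108, 86.0 and 81.2 in dehydrated plants and 691, 632 and 1064 in controls (-2.88 ± 0.18).

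The xyloglucan endotransglucosylase/hydrolases, which cut and rejoin wall xyloglucan, included 3 genes that rose and 2 that fell among 10, or 5 and 2 after subtraction of array medians. On the deposited scale 13.1% of all genes rose and 30.2% fell. XTH18 (AT4G30280) read 313, 291 and 286 in dehydrated siz1-3 and 31.6, 32.1 and 35.4 in controls (2.67 ± 0.26, adjusted p = 2.92e-06), and its neighbour XTH19 (AT4G30290) read 85.2, 125 and 100.6 against 2.18, 14.6 and 12.3 (2.24 ± 0.26). In Col-0 the log2 differences were -0.20 and 0.04, and the difference between genotypes was 2.87 ± 0.37 and 2.202 ± 0.37 (adjusted p = 0.000641 and 0.00353). XTH16 (AT3G23730) fell, with 36.7, 52.6 and 39.5 in dehydrated and 265, 189 and 216 in control siz1-3 plants (-2.02 ± 0.17), more than in Col-0 (difference -0.94 ± 0.24, adjusted p = 0.0293; 0.0749 and 0.0578 after the rescalings). EXPA4, too, fell more in siz1-3 than in Col-0 (difference -1.37 ± 0.23, adjusted p = 0.00319), and EXPA16 rose less (-1.06 ± 0.20, adjusted p = 0.00685).

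Enzymes that modify wall polymers fell more often than they rose, as did genes in general (30.2% lower and 13.1% higher). Of 23 TRICHOME BIREFRINGENCE-LIKE genes, whose products add acetyl groups to wall polysaccharides, 14 fell and 2 rose, and 7 fell and 3 rose after quantile normalization. TBL25 (AT1G01430) read 63.6, 64.6 and 62.8 in dehydrated siz1-3 and 353, 443 and 463 in controls (-2.44 ± 0.15), TBL45 (AT2G30010) fell (-1.97 ± 0.15), as did TBL39 (AT2G42570) (-1.35 ± 0.17). TBL37 (AT2G34070) ran the other way, at 2059, 1866 and 1755 against 339, 363 and 465 (2.25 ± 0.18), as did TBL41 (AT3G14850) (1.26 ± 0.21). Of 6 pectin methylesterases 4 fell and 0 rose, and 2 fell and 1 rose after subtraction of array medians. Those that fell included ATPMEPCRB (AT4G02330) (PME41; -1.83 ± 0.18) and PMEPCRF (AT5G53370) (-1.77 ± 0.18), both more than in Col-0 (difference -1.39 ± 0.26 and -1.21 ± 0.25, adjusted p = 0.00591 and 0.0111; for the first 0.0508 with 1 added in place of 16). Mean signals of ATPMEPCRB were 147 in dehydrated and 564 in control siz1-3, and 42.9 and 63.6 in Col-0. Those of PMEPCRF were 184 and 663 in siz1-3, and 173 and 262 in Col-0. The control levels of both were higher in siz1-3, and the part of this in the differences was not tested. Of 8 measured genes of the cellulose synthase family, CSLA03 (AT1G23480) fell (-1.88 ± 0.28) and CSLD2 (AT5G16910) rose by 0.60 ± 0.14.

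Developmental regulators of the leaf surface and leaf shape were mostly lower. The 4 measured genes of stomatal development all fell on the deposited scale, and 2 did after either rescaling or without siz1-3 control replicate 1. On the deposited scale 30.2% of all genes fell. STOMAGEN (AT4G12970), a peptide that promotes stomata, read 68.0, 57.4 and 85.2 in dehydrated siz1-3 and 303, 285 and 258 in controls (-1.80 ± 0.15, adjusted p = 6.38e-07), and FMA (AT3G24140, FAMA), a guard cell factor, read 59.1, 46.5 and 41.3 against 125, 97.1 and 126 (-1.02 ± 0.21). SPCH (AT5G53210), which starts the stomatal lineage, was dim, with 6.41, 15.5 and 15.9 in dehydrated and 50.7, 24.0 and 55.6 in control plants (-1.03 ± 0.34, adjusted p = 0.0232, up to 0.221 over the alternatives). The summed signal of the 3 measured guard cell markers of 9 planned, which include FAMA, was 57.6 to 74.5 in dehydrated and 135.4 to 191.9 in control siz1-3 plants. All 3 of those markers fell, 1 of them after either rescaling, and the part of cell composition in these values was not tested.

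YAB3 (AT4G00180) and TCP15 (AT1G69690), factors of leaf polarity and leaf growth, fell (-1.31 ± 0.10 and -1.38 ± 0.16). The NGATHA genes diverged: NGA1 (AT2G46870) read 3.77, 17.5 and 22.6 in dehydrated siz1-3 and 87.7, 54.6 and 72.9 in controls (-1.56 ± 0.28), while NGA3 (AT1G01030) read 121, 111 and 115.5 against 26.2, 18.7 and 1.73 (2.16 ± 0.26). Of 6 CLE peptide genes 5 fell, or 3 after either rescaling, where 30.2% of all genes fell on the deposited scale. CLE44 (AT4G13195) and CLE41 (AT3G24770), which encode the peptide that holds back xylem formation, fell (-1.27 ± 0.13 and -1.11 ± 0.18), CLE44 more than in Col-0 (-0.71 ± 0.18, adjusted p = 0.0344; 0.0943 and 0.0776 after the rescalings). CLE21 was dim (-1.29 ± 0.27, and adjusted p = 0.0623 with a floor of 32). Of marker lists for other tissues, 2 of 3 measured root genes and 2 of 2 green leaf genes fell, or 0 and 1 after subtraction of array medians. Their summed signals were 473.5 to 515.4 in dehydrated and 648.8 to 749.2 in control plants for roots. For green leaf tissue they were 11612.4 to 12582.4 in dehydrated and 17415.4 to 19900.3 in control plants. The annotation paired 0 of the planned flower, seed and xylem markers with a probe set of their own, so these tissues were not examined.

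The hormone lists held 4 measured auxin genes, 2 cytokinin response regulators and 1 gene each of brassinosteroid, gibberellin and ethylene. Lists for abscisic acid synthesis and breakdown (12 genes), its receptors, phosphatases and kinases (26) and jasmonate (25) had 0 measured members. Those lists were therefore not examined. GH3.3 (AT2G23170), which joins auxin to amino acids, read 642, 747 and 669 in dehydrated siz1-3 and 112, 119 and 107 in controls (2.45 ± 0.17, adjusted p = 1.32e-07). WES1 (AT4G27260) (GH3.5), another enzyme of that family, read 725, 874 and 796 against 303, 244 and 242 (1.55 ± 0.14), where Col-0 had a log2 difference of -0.04 (difference 1.59 ± 0.20, adjusted p = 0.000572). GH3.1 (AT2G14960) was near the bottom of the scale in both groups and did not pass (adjusted p = 0.503). Of the auxin-response repressors IAA18 (AT1G51950) rose by 2.03 ± 0.13 and IAA29 (AT4G32280) fell (-1.08 ± 0.18). BIM1 (AT5G08130), a partner of brassinosteroid transcription factors, read 708, 704 and 689 in dehydrated plants and 132, 192 and 118 in controls (2.16 ± 0.18), more positive than in Col-0 by 1.29 ± 0.26 (adjusted p = 0.00999).

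GID1A (AT3G05120), a gibberellin receptor, fell (-1.27 ± 0.15). The cytokinin response regulators ran apart, RR16 (AT2G40670) at 1.34 ± 0.21 and ARR15 (AT1G74890) at -1.06 ± 0.27, and the ARR15 call was lost after quantile normalization (adjusted p = 0.0509). EIN3 (AT3G20770) of ethylene signalling did not pass (0.26 ± 0.13, adjusted p = 0.131), but did once array medians were subtracted (adjusted p = 0.00195). The clock gene GI (AT1G22770) read 145, 151 and 186 in dehydrated siz1-3 and 347, 516 and 360.3 in controls (-1.25 ± 0.17).

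Transcription factors with large falls included AT5G61590 (DEWAX), a repressor of wax synthesis, which read 169.99, 224 and 226 in dehydrated siz1-3 and 2644, 2920.2 and 2509 in controls (-3.61 ± 0.13). BZIP61 (AT3G58120) read 1.21, 1.45 and 0.598 against 137, 114 and 147 (-3.12 ± 0.15), at the bottom of the scale in the dehydrated plants. DEWAX fell less than in Col-0, by 0.80 ± 0.19 (adjusted p = 0.0221). For BZIP61 the size of the fall cannot be compared with Col-0, since its dehydrated Col-0 arrays also read below the added 16, at 9.04, 11.03 and 2.59, and the difference of 1.24 turned to -0.086 when 1 was added in place of 16. BHLH101 (AT5G04150), a factor of the iron deficiency response, read 10.8, 2.197 and 3.93 in dehydrated and 195, 235 and 220.1 in control plants (-3.44 ± 0.19). BZIP28 (AT3G10800), a membrane-held factor of the unfolded protein response, rose, with 964, 961 and 953 against 412, 389 and 282 (1.39 ± 0.14).

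Of 42 measured MADS-box genes 4 rose and 4 fell, where 13.1% of all genes rose and 30.2% fell, and 11 rose and 3 fell after subtraction of array medians. Among them were AT1G30260 (AGL79), at 1.19 ± 0.14, and AGL87 (AT1G22590), at -1.66 ± 0.18. WRKY47 (AT4G01720) (0.33 ± 0.12) and STZ (AT1G27730) (ZAT10, a zinc finger repressor; 0.54 ± 0.20) passed narrowly, and these calls were lost under 8 and 12 of the alternatives. WRKY53 (AT4G23810), a factor of leaf senescence, fell to 850.3, 882 and 814, against 1677, 1979 and 1861 in controls (-1.099 ± 0.19), less than in Col-0 (difference 0.95 ± 0.27, adjusted p = 0.0462, but 0.132 after quantile normalization).

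The wax list held 3 measured genes: DEWAX, the locus AT5G07580, which read 54.0, 44.7 and 44.1 in dehydrated siz1-3 and 807, 1112 and 862 in controls (-3.88 ± 0.13), and WSD1 (AT5G37300), a wax ester synthase, which rose by 1.26 ± 0.19, less than in Col-0 (-1.58 ± 0.28, adjusted p = 0.00415). Among defence genes GRX480 (AT1G28480), a glutaredoxin that binds TGA factors, read 2279, 2491 and 2499 in dehydrated plants and 300.2, 404 and 459 in controls (2.61 ± 0.15). SAG101 (AT5G14930), a partner of immune receptors, had a log2 difference of -0.49 ± 0.12 (adjusted p of 0.0918 and 0.329 after the rescalings), less negative than in Col-0 by 0.79 ± 0.17 (adjusted p = 0.0122). MSRB5 (AT4G04830), which repairs oxidised methionine, read 83.0, 61.5 and 86.4 against 603, 390.4 and 543 (-2.49 ± 0.24). GSTU27 (AT3G43800), a glutathione transferase, read 86.3, 76.4 and 92.9 in dehydrated plants and 686, 758 and 763 in controls (-2.89 ± 0.14), and GSTU28 (AT1G53680) rose by 1.104 ± 0.21. MSRB5 fell more than in Col-0 (-1.40 ± 0.34, adjusted p = 0.0236).

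Enzyme families of specialised metabolism differed in their counts. Of 29 serine carboxypeptidase-like genes 11 fell and 0 rose, beside 30.2% lower and 13.1% higher among all genes, with a median of -0.26 that became 0.09 after subtraction of array medians, when 10 fell and 2 rose. SCPL34 (AT5G23210) read 56.8, 46.1 and 44.1 in dehydrated siz1-3 and 225, 262 and 245 in controls (-2.004 ± 0.14), and SCPL45 (AT1G28110) fell (-1.72 ± 0.14). Of 19 CYP71B cytochromes P450 9 fell and 1 rose, with a median of -0.23 that became 0.11 after that subtraction, when 7 fell and 4 rose. CYP71B36 (AT3G26320) read 10.3, 15.3 and 1.38 against 106, 154 and 104.5 (-2.48 ± 0.21), CYP71B29 (AT1G13100) fell (-2.29 ± 0.25), as did CYP71B24 (AT3G26230) (-2.07 ± 0.20). CYP71B36 was dim in Col-0, at 1.93, 1.46 and 2.44 in dehydrated and 26.7, 23.8 and 16.4 in control plants, so its difference from Col-0 (-1.40 ± 0.29, adjusted p = 0.0115, but 0.536 with 1 added in place of 16) rests on signals near or below the added 16. The difference of CYP71B24 (-1.02 ± 0.29, adjusted p = 0.0449) was lost after either rescaling (0.0849 and 0.0786). The 1 riser, CYP71B26 (AT3G26290) (0.37 ± 0.14, adjusted p = 0.0426), lost its call under 9 alternatives.

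Of 22 beta-glucosidase genes 8 rose and 5 fell, beside 13.1% and 30.2% of all genes. After subtraction of array medians 9 of the 22 rose and 2 fell. BGLU16 (AT3G60130) read 1725, 1676 and 1858 in dehydrated siz1-3 and 360.3, 372 and 392 in controls (2.18 ± 0.13) and BGLU44 (AT3G18080) read 516, 612 and 498 against 3769, 3592 and 4602 (-2.84 ± 0.12), the first rising and the second falling by more than in Col-0 (0.73 ± 0.18 and -0.84 ± 0.17, adjusted p = 0.0251 and 0.0115). UGT88A1 (AT3G16520), a glycosyltransferase, fell (-1.92 ± 0.10). DRT100 (AT3G12610) read 33.1, 42.9 and 28.2 in dehydrated plants and 729.8, 774 and 793 in controls (-3.95 ± 0.12), ATLP-1 (AT1G18250), a thaumatin-like protein, fell (-2.55 ± 0.13), as did P1R1 (AT5G57780) (-2.63 ± 0.15). Of the heat shock list ATHSP22.0 (AT4G10250) (-0.74 ± 0.27) and the locus AT1G53540 (0.53 ± 0.28, adjusted p = 0.148) were dim, and the call of the first was lost under 10 alternatives.

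Flavonoid and anthocyanin genes behaved differently in the mutant. Of 5 measured genes 3 fell and 0 rose in siz1-3, or 1 fell after subtraction of array medians, while 5 rose in Col-0, where 13.5% of probe sets rose. All 5 had a response that was more negative in siz1-3 and passed the test of the difference. DFR (AT5G42800), dihydroflavonol reductase, read 67.9, 47.7 and 59.9 in dehydrated and 67.9, 77.9 and 60.9 in control siz1-3 plants (-0.19 ± 0.19, adjusted p = 0.451), and 416, 321 and 328 in dehydrated and 43.1, 72.7 and 38.2 in control Col-0. The difference was -2.68 ± 0.27 (adjusted p = 0.000148). The siz1-3 arrays of DFR overlapped between the groups, while the dehydrated Col-0 arrays lay above all others.

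UF3GT (AT5G54060), a flavonoid glucosyltransferase, read 21.5, 21.3 and 25.5 in dehydrated and 32.8, 29.6 and 25.03 in control siz1-3 plants (-0.22 ± 0.23, adjusted p = 0.501), and 189, 227 and 357 in dehydrated and 28.4, 41.4 and 14.7 in control Col-0 (difference -2.85 ± 0.33, adjusted p = 0.000371). UGT78D2 (AT5G17050), a flavonoid 3-O-glucosyltransferase, read 57.4, 81.3 and 94.7 against 160.1, 150.4 and 164 in siz1-3 (-0.91 ± 0.15), and its difference from Col-0 was -1.68 ± 0.21 (adjusted p = 0.00048). UGT78D1 (AT1G30530) had a log2 difference of -0.60 ± 0.14 in siz1-3 (adjusted p = 0.0038, but 0.166 once array medians were subtracted) and differed from Col-0 by -1.64 ± 0.20 (adjusted p = 0.000505). The locus AT4G14090 read 12.1, 22.2 and 4.33 in dehydrated and 59.0, 48.4 and 40.5 in control siz1-3 plants (-1.21 ± 0.44, adjusted p = 0.0377, lost under 10 alternatives), and differed from Col-0 by -3.19 ± 0.62 (adjusted p = 0.00812).

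The glucosinolate enzyme UGT74B1 (AT1G24100) showed the same contrast. It read 617, 442 and 499 in dehydrated and 1086, 892 and 870.4 in control siz1-3 plants (-0.86 ± 0.16), and 1850.2, 2024 and 2023 in dehydrated and 678, 742 and 967 in control Col-0 (difference -2.16 ± 0.23, adjusted p = 0.000196). BCAT4 (AT3G19710), an aminotransferase that starts methionine-derived glucosinolates, had a log2 difference of -0.70 ± 0.19 (adjusted p = 0.01, but 0.156 once array medians were subtracted).

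**Figure D4:**
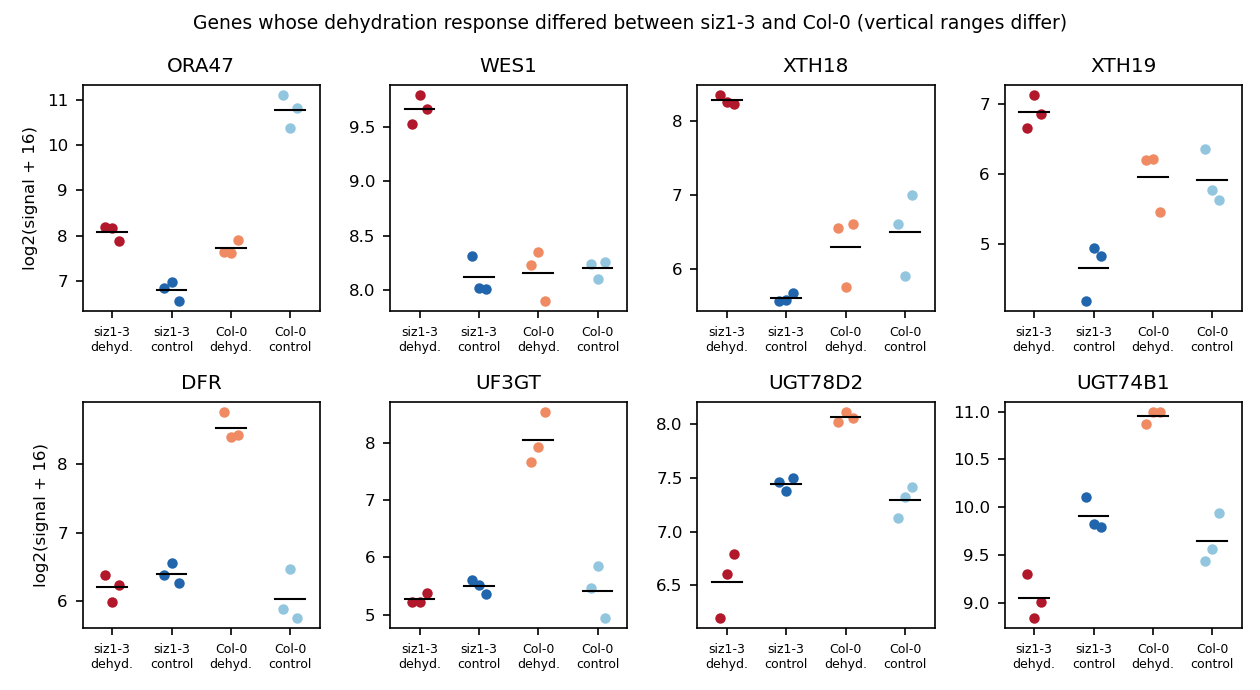
Signals as log2(signal + 16) on all 12 arrays for 8 genes whose response differed between the genotypes, in the order siz1-3 dehydrated, siz1-3 control, Col-0 dehydrated and Col-0 control; points are arrays and bars group means, and the vertical range differs between panels. WES1, XTH18 and XTH19 are highest in dehydrated siz1-3, and DFR, UF3GT, UGT78D2 and UGT74B1 in dehydrated Col-0.

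Of genes with their own probe set, ORA47 (AT1G74930) had the most positive called difference between the responses, on the scale with 16 added. ORA47 is an AP2/ERF factor that activates jasmonate synthesis genes. It read 276, 272 and 221 in dehydrated and 99.3, 111 and 78.8 in control siz1-3 plants (1.28 ± 0.18, adjusted p = 8.03e-05), and 185, 182 and 223 in dehydrated and 2196, 1323 and 1797 in control Col-0 (-3.05 ± 0.18). The difference was 4.33 ± 0.26 (adjusted p = 9.51e-06). The dehydrated levels of the genotypes lay close together and the control levels far apart, with Col-0 controls the highest.

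The other loci with the most positive differences have no name in the reference used. AT4G38410 read 3357, 3825 and 3853 in dehydrated and 20.8, 38.6 and 26.5 in control siz1-3 plants (6.39 ± 0.24), against 2.91 in Col-0 (difference 3.48 ± 0.34, adjusted p = 0.000142). AT1G76470 read 1258, 1428 and 1333 against 16.6, 13.6 and 27.9 in siz1-3 (5.28 ± 0.28) and AT2G43580 read 1065, 1257 and 1370.3 against 18.3, 14.7 and 9.98 (5.36 ± 0.16), more positive than in Col-0 by 3.603 ± 0.40 and 3.35 ± 0.23 (adjusted p = 0.000264 and 1.54e-05). AT4G27652 rose by 0.98 ± 0.25 in siz1-3 and had -1.97 in Col-0 (difference 2.95 ± 0.35, adjusted p = 0.000428).

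On the negative side, AT5G38130 read 37.9, 30.7 and 31.5 in dehydrated and 11.2, 12.5 and 20.07 in control siz1-3 plants (0.70 ± 0.16), against a log2 difference of 4.28 in Col-0 (difference -3.58 ± 0.23, adjusted p = 9.83e-06). AT1G51920 read 9.98, 5.79 and 13.1 against 193, 176 and 209 in siz1-3 (-3.03 ± 0.17), and AT2G44380 read 9.04, 11.8 and 2.64 against 174, 137 and 142 (-2.82 ± 0.23). Both loci were at the bottom of the scale in Col-0: AT1G51920 read 4.72, 8.47 and 13.1 in dehydrated and 1.93, 6.86 and 0.653 in control plants, and AT2G44380 read 16.5, 9.91 and 6.42 in dehydrated and 1.21, 1.08 and 14.2 in control plants. Col-0 could therefore not show a fall, and the fitted differences of -3.40 and -3.18 (adjusted p = 1.54e-05 and 0.000183) depend on the added 16. What was measured is that the siz1-3 control arrays stood above those of the 3 other groups for both loci.

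Most probe sets changed at least 2-fold in the mutant were changed in the same direction in the wild type. Of the 1623 probe sets that rose at least 2-fold in siz1-3, 1396 also rose and 10 fell in Col-0. Of the 2644 that fell as far, 2365 also fell and 12 rose in Col-0, where 13.5% of all probe sets rose and 23.5% fell. A difference between the responses was called for 528 and 553 of them. It had the sign of the siz1-3 change in 451 and 486, a side that selecting on siz1-3 favours. The arrays of the genotypes are separate, so these comparisons share no control sample. Both tests do use the same estimate of spread for each probe set, so their calls are not independent of each other.

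**Figure D5:**
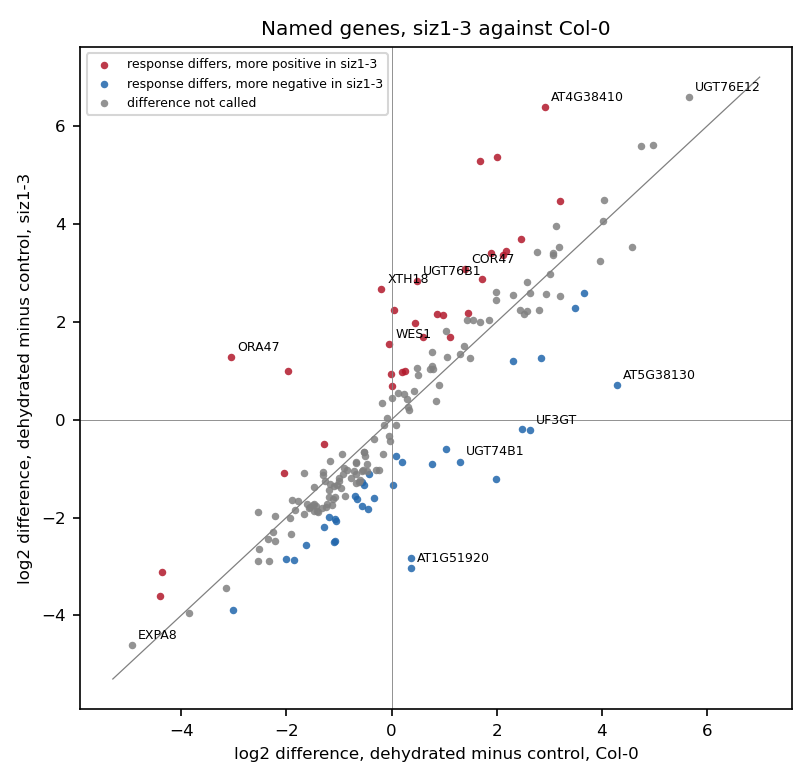
Log2 difference of signal + 16, dehydrated minus control, in siz1-3 (vertical) against Col-0 (horizontal) for the genes named in the text; the diagonal marks equal responses, red and blue points passed the test of the difference and grey points did not. Most points lie along the diagonal, ORA47 lies far above it, and AT5G38130 and the flavonoid gene UF3GT lie far below it.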

How the data were processed

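Per the labels' protocols, total RNA was extracted with TriZOL, labelled with a biotin amplification kit and hybridised to ATH1 arrays. The values analysed are the deposited intensity of each probe set; the labels do not state how the authors summarised and scaled probes, and no detection calls were used. Of 22810 probe sets, 64 controls were left out. Names came from the platform annotation and RefSeq (TAIR10.1): 13513 tested probe sets pair with 1 gene, 13436 of them matched RefSeq, 503 pair with several and 8730 are not listed and were counted but not named. The brightest probe set on average stood for a gene. No build is stated, so no coordinates are given.

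Log2(intensity + 16) was fitted in limma 3.58.1 (R 4.3.3; lmFit, eBayes) with 1 mean for each of the 4 groups and 8 residual degrees of freedom. The fit was tested on simulated data. Genes named are the 15 largest increases and decreases that are called, do not overlap and have a name, up to 4 members of each function list, the extremes of each family, SIZ1, the 5 most positive and 5 most negative differences between genotypes, and members of groups formed after the values were seen. The members, lists and groups were chosen with earlier results of these data known. Of 462 list entries 72 had a probe set of their own. Besides the lists for abscisic acid and jasmonate, 0 members were measured for aquaporins and for raffinose and trehalose metabolism. The same held for nitrogen and sulphur assimilation and for phosphate starvation. A promoter motif search that had been planned was not run. The deviations of same-numbered dehydrated and control arrays from their group means correlated at 0.01 to 0.053. That was below the 0.1 set for pairing, so no pairing was used.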

Additional observations from a re-analysis of the deposited data

Results flagged for a closer look

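Differences of the dehydration response between siz1-3 and Col-0 were tested as the interaction of genotype and treatment. Of the 187 genes named, 64 had a response that differed (limma interaction, Benjamini-Hochberg adjusted p under 0.05 over all probe sets). The values here are the log2 response of siz1-3 minus that of Col-0, so a positive value means a more positive response in the mutant. No explanation was tested.

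Among protective and stress genes the differences were 1.69 for COR47, 1.27 for LTI30, 1.09 for COR15A, 1.54 for AT2G46140, 1.23 for SIS, -1.58 for WSD1, 0.80 for AT5G61590, -0.86 for AT5G07580 and -1.40 for MSRB5. Among regulators of hormones and defence they were 4.33 for ORA47, 1.59 for WES1, 1.29 for BIM1, 0.95 for WRKY53, 0.79 for SAG101, 1.24 for BZIP61, -1.12 for AT1G30260 and 1.23 for IQD22. Among genes of autophagy, sorting and degradation they were 1.15 for ATG8H, 0.67 for ATG8B, 0.95 for AT5G66930, 0.77 for VPS20.1, 1.15 for PRA1.B4 and -0.83 for UBC20. Among transporters and metabolic enzymes they were 1.26 for SWEET4, -1.27 for SWEET17, -1.07 for AT1G68570, -1.20 for AT4G33150, 0.58 for MCCA, 0.73 for SDH2-1, 1.51 for CCR2, 0.73 for BGLU16, -0.84 for BGLU44, -1.40 for CYP71B36, -1.02 for CYP71B24 and 2.35 for UGT76B1. Among flavonoid and glucosinolate genes they were -2.68 for DFR, -2.85 for UF3GT, -1.64 for UGT78D1, -1.68 for UGT78D2, -3.19 for AT4G14090 and -2.16 for UGT74B1. Among cell wall and growth genes they were 2.87 for XTH18, 2.202 for XTH19, -0.94 for XTH16, -1.06 for EXPA16, -1.37 for EXPA4, -1.39 for ATPMEPCRB, -1.21 for PMEPCRF, -0.71 for CLE44 and -0.92 for ATLP-1. Among nuclear genes for plastid and organelle functions they were -1.02 for CRR42, -0.96 for NdhN, -0.88 for LPA2, -0.69 for PSAN, -0.80 for CFM3A and -0.90 for PPR596. Among loci without a name in the reference, and SIZ1, they were 3.48 for AT4G38410, 3.603 for AT1G76470, 3.35 for AT2G43580, 2.95 for AT4G27652, -3.58 for AT5G38130, -3.40 for AT1G51920, -3.18 for AT2G44380 and -0.83 for SIZ1. 

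The signs of the response itself were opposite and called in both genotypes for 6 of the genes named. ORA47 rose in siz1-3 (1.28) and fell in Col-0 (-3.05), and AT4G27652 did the same (0.98 in siz1-3, -1.97 in Col-0). The others fell in siz1-3 and rose in Col-0: UGT74B1 (-0.86 in siz1-3, 1.303 in Col-0), UGT78D2 (-0.91 in siz1-3, 0.77 in Col-0), UGT78D1 (-0.60 in siz1-3, 1.04 in Col-0) and AT4G14090 (-1.21 in siz1-3, 1.98 in Col-0). For SIZ1 the value is that of the brighter probe set. In 9 of the 64 genes at least 1 group averaged below the added 16, so the size of the difference depends on that offset: BZIP61, CYP71B36, XTH19, AT4G14090, WSD1, AT2G43580, AT5G38130, AT1G51920 and AT2G44380. The differences of BZIP61, AT1G51920 and AT2G44380 are not read as differences in the size of a fall.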

How the results depend on the processing

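The count of probe sets changed in siz1-3, 10707, was 9525 to 10909 over the alternatives to scaling, offset, floor and filter, 10833 on the 6 siz1-3 arrays alone and 9572 to 10900 without any one array. The count changed at least 2-fold, 4267, was 2671 with a pseudocount of 64, 5641 with a pseudocount of 1 and 4222 to 4386 without any one array. The count of responses that differed between genotypes, 2003, was 1375 with a pseudocount of 1, 2875 with a pseudocount of 64 and 1270 to 1885 without any one array, with 1271 and 1270 without dehydrated siz1-3 replicate 2 or 3. With the replicate number as a block, a fit that no pairing in the design calls for, 10474 probe sets changed, 4269 by at least 2-fold, and 1313 responses differed. In the check for pairing, the deviations of every array from its group mean correlated best with those of its own number. That is a hint from the data and not from the design. The SIZ1 differences between genotypes kept their direction with quantile normalization, subtraction of array medians and a pseudocount of 1.

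Of the 179 probe sets of named genes that were called in siz1-3, 0 changed sign under the alternatives. The alternative fits share arrays and are not separate tests. Counted once per probe set and fit, 74 of 3563 values lost the call, in 19 genes. Besides those given with their genes, STZ lost it without any 1 of the dehydrated arrays of either genotype, siz1-3 control replicate 1 or 3 or Col-0 control replicate 3 (adjusted p to 0.132 over all settings), WRKY47 without any 1 of the 6 siz1-3 arrays (to 0.1), CYP71B26 without siz1-3 control replicate 1 or 2, dehydrated siz1-3 replicate 2 or 3, Col-0 control replicate 2 or dehydrated Col-0 replicate 1 (to 0.173), and SPCH without siz1-3 control replicate 1 or 3 or dehydrated replicate 1 (to 0.221). AT4G14090 lost it without siz1-3 dehydrated replicate 1 or 3 or any siz1-3 control (to 0.28), ATHSP22.0 without siz1-3 dehydrated replicate 1 or 3 or control replicate 1 or 3 (to 0.6), and AT5G38130 with a floor of 32 (0.374). Genes that were not called changed sign as follows. After quantile normalization GSA1 was at -0.037, UF3GT at 0.056, DFR at 0.17 and the dimmer SIZ1 probe set at 0.21. After subtraction of array medians UF3GT was at 0.13, DFR at 0.15, SAE1A at 0.24, COR15B at 0.0094 and the dimmer SIZ1 probe set at 0.23. Without any one array GH3.1 ran over -0.032 to 0.36, GSA1 over -0.079 to 0.12 and the dimmer SIZ1 probe set over -0.29 to 0.038. Calls were gained 8 times in such genes: EIN3 after subtraction of array medians or without siz1-3 control replicate 2 (adjusted p = 0.00195 and 0.049), GSA1 after subtraction of array medians (0.0489), AT1G53540 after quantile normalization, subtraction of array medians or without siz1-3 control replicate 3 (0.0405, 0.0225 and 0.0077), and COR15B on the siz1-3 arrays alone or without dehydrated Col-0 replicate 3 (0.0398 and 0.0383). The differences between genotypes of the 64 genes listed above were refitted under the same settings, a step added after seeing the data, and 24 were lost at least once with their direction kept. Not called were 7 after quantile normalization, 7 after subtraction of array medians, 11 with a pseudocount of 1, 1 with a pseudocount of 64, 3 with a floor of 32 and 16 with the replicate block. The difference of BZIP61 turned to -0.086 with a pseudocount of 1. Without 1 array, 17 differences were lost: AT5G61590 without Col-0 control replicate 1 or dehydrated siz1-3 replicate 2 or 3 (adjusted p to 0.0616), MSRB5 without siz1-3 control replicate 1 or 3 or dehydrated siz1-3 replicate 2 (to 0.0624), CFM3A, UBC20 and BGLU16 without any 1 of 4 arrays (to 0.0551, 0.055 and 0.0673), SDH2-1 of 5 (to 0.0649), PSAN and XTH16 of 6 (to 0.0672 and 0.0724), ATG8B of 7 (to 0.0717), AT5G66930 of 8 (to 0.0659), CLE44, LPA2, VPS20.1 and SIZ1 of 9 (to 0.0893, 0.081, 0.0945 and 0.108), CYP71B24 and WRKY53 of 10 (to 0.102 and 0.103) and MCCA of 11 (to 0.114). The cause of these changes was not tested. Signals near the added 16 have no detection call, so changes of dim genes are the least certain, and 3 arrays per group limit the precision throughout.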
